A study of Mus musculus with 12 samples.

Results

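The 6 genes described here, Sprr1a, Tnfaip6, Ifrd1, Tsc22d2, Csrnp1 and Rn7sk, stood high in mouse livers injured by acetaminophen (APAP) and lie outside the pathways usually followed in that injury. They are 6 of the 45777 genes in the table and were selected on these same livers for high and steady levels after APAP, so their APAP against vehicle values are given as a description, with no test. All libraries came from whole livers of male C57BL/6 mice aged 10 to 12 weeks and fasted overnight. Wild-type (WT) mice and Gα12-/- mice (KO, labelled as lacking the G protein subunit gene Gna12) each received vehicle or APAP, which made 4 groups of 3 livers. APAP was a single intraperitoneal dose of 300 mg/kg and livers were taken 6 h later. The WT mice were littermates of the KO mice. How the KO allele was made is not given in the sources used here.

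An APAP overdose is converted by cytochrome P450 enzymes around the central vein to a reactive product that consumes glutathione and binds proteins, and injured hepatocytes answer with stress kinase signalling and rapid transcription. Immediate early genes are the first to respond, since their induction needs no new protein. Ifrd1, a transcriptional coregulator first cloned as a phorbol ester (TPA) inducible sequence, and Csrnp1, a nuclear transcription activator named for its induction by Axin, belong to this kind of gene. Tsc22d2 is a leucine zipper protein of the TSC22 family, whose members bind the NRBP1 and WNK proteins of the cell volume response. Sprr1a encodes a small proline-rich precursor of the cornified envelope, the cross-linked protein shell of skin cells, and is also known from injured nerve and heart. Tnfaip6 encodes TSG-6, a secreted protein that binds hyaluronan and moves heavy chains of the inter-alpha-inhibitor proteins onto it. Rn7sk is the 7SK RNA, a noncoding RNA made by RNA polymerase III that holds the elongation kinase P-TEFb (Cdk9 with a cyclin T) inactive together with the Hexim proteins.

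In RefSeq coordinates of build GRCm38.p6, Sprr1a lies at chr3:92483954-92485881 on the minus strand and Tsc22d2 at chr3:58414702-58466787 on the plus strand. Tnfaip6 lies at chr2:52038113-52056681 on the plus strand, Ifrd1 at chr12:40203129-40223189 on the minus strand, Csrnp1 at chr9:119971163-119984742 on the minus strand and Rn7sk at chr9:78175302-78175633 on the minus strand. Ifrd1 overlaps 4 annotated genes, among them Gm7008 on the opposite strand, and Csrnp1 overlaps Cx3cr1 on its own strand and 1700019L13Rik on the other. Whether the authors counted reads by strand is not given in the sources used here, so reads from these overlaps cannot be told apart.

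The 5′ part of the 7SK sequence is shown because it is the part that binds Hexim. It reads, as DNA letters of the annotated transcript of 331 bases from its first base, with the 3 GATC repeats at bases 13, 42 and 64 in capitals:
Rn7sk 5′ part: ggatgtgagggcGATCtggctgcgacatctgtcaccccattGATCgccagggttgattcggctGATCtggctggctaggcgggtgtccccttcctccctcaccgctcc
The 3′ end, where Larp7 binds the run of U, is shown because it lacks a poly-A tail, while these libraries were made from poly-A selected RNA. Bases 302 to 331 read as follows, with the final 3 T in capitals:
Rn7sk 3′ end: ggcgctgcatgtggcagtctgcctttcTTT
The longest run of A anywhere in the transcript is 3 bases. Of its 282 stretches of 50 bases, 192 (68.1%) also occur in transcripts of other annotated genes, such as the predicted gene Gm22058. No such stretch of the other 5 genes does. How many genes hold copies of the Rn7sk stretches was not counted. How the authors' counting placed reads that fit several of these copies is not known, so the Rn7sk counts are uncertain in that respect.

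RefSeq promoter windows (250 bases before to 50 after a start) were matched for 4 of the 6 genes, in 7 windows, with none for Tsc22d2 and Rn7sk. The AP-1 site, searched as TGANTCA on both strands, occurred in 3 of these 7 windows and in 7.81% of all 32851 windows. It stood at 146 and 116 bases before the start of Sprr1a, 142 before that of Tnfaip6, and 102 and 14 before the most downstream of the 4 starts of Csrnp1, in an intron of its longer transcripts. The bases of these windows that lie in no annotated exon are shown for the 3 genes because the same 7 letters recur in them, in capitals and on the gene's strand.
Sprr1a, minus strand, chr3:92485896-92486131: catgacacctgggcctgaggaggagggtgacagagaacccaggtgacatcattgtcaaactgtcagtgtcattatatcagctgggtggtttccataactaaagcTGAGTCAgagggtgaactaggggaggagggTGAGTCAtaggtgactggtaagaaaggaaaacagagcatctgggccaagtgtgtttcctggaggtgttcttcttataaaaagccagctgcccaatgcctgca
Tnfaip6, plus strand, chr2:52037863-52038008: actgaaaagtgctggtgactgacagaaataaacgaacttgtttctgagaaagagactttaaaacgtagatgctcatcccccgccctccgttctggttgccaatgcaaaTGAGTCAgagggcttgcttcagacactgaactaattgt
Csrnp1, minus strand, chr9:119983024-119983145: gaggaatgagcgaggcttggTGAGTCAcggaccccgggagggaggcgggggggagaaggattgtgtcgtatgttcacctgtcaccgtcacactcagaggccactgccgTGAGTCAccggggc
The Ifrd1 window held no AP-1 site but held the CRE core TGACG at 47 bases before the start, a pentamer found in 20.8% of all windows. Each of the 4 Csrnp1 windows held TGACG as well, and the Sprr1a window alone held TATAAA, at 43 bases before the start (13.6% of all windows). The full CRE (TGACGTCA, 1.79% of windows) occurred in none of the 7. Sprr1a and the third Csrnp1 window also held the antioxidant element core TGACNNNGC (12.4% of windows), which in Sprr1a overlaps its distal AP-1 site. These matches describe letters in the windows and say nothing of binding in these livers.

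Total counts ran from 49737950 to 69566079 per library. Levels are given as counts, as CPM (counts scaled to library sizes after TMM, the trimmed mean normalization of edgeR) and, between genes, as the authors' TPM, which is per length. The library of WT APAP replicate 1 stood apart, with a TMM factor of 0.762 and an erythroid marker sum of 17080 CPM against 252 to 749 in the other 11 livers, and values are given without it where they move. The counts of Gna12 were 2472 to 4003 in the KO livers and 1193 to 4373 in the WT livers, so they were not lower under the KO label, and these livers are called KO by label. The paper reports tail DNA PCR and liver qRT-PCR for Gna12 in KO mice and WT littermates. It also shows Gα12 immunoblots of livers and primary hepatocytes from both genotypes. Whether the livers sequenced here were among those assayed is not said. In bulk liver, fewer cells of a type and less RNA per cell cannot be told apart.

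Sprr1a was read in no vehicle liver and in every APAP liver. Its counts were 0 in all 3 WT vehicle and all 3 KO vehicle livers, 288, 3960 and 2293 in WT APAP replicates 1 to 3, and 2288, 746 and 2288 in KO APAP replicates 1 to 3. In CPM the WT APAP livers held 5.63, 53.2 and 36.4 and the KO APAP livers 39.8, 11.9 and 32.9. The groups did not overlap, and WT APAP replicate 1 was the lowest of the APAP livers. Against a floor of 3 counts per vehicle library, the mean level was at least 531-fold higher after APAP in WT and at least 482-fold higher under the KO label. The WT bound was 749.9-fold without WT APAP replicate 1 and 352-fold without WT APAP replicate 2. The 9.46-fold range among the 3 WT APAP livers was the widest of the 6 genes.

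Tnfaip6 was at or near 0 with vehicle and low but present in every APAP liver. Its counts were 0, 2 and 0 in the WT vehicle livers and 0, 5 and 4 in the KO vehicle livers. After APAP they were 231, 291 and 540 in WT and 496, 266 and 333 under the KO label. Every APAP liver stood above every vehicle liver, and 1 liver of each genotype label, WT APAP replicate 3 and KO APAP replicate 1, stood well above the other 2. After APAP the mean was 5.67 ± 2.54 CPM in WT and 5.88 ± 2.39 CPM under the KO label (SD over 3 livers each). The fold of mean CPM was 405 in WT, where it rests on 2 vehicle counts in all and carries a counting interval (95%, exact binomial) of 117 to 3513. It was 94.9 under the KO label, with an interval of 52.4 to 219. These intervals cover counting error only.

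Ifrd1 had the highest level per length (TPM) of the 6 genes with vehicle and after APAP. Its levels were 16.7, 14.4 and 16.1 CPM in WT vehicle livers and 352, 325 and 417 CPM in WT APAP livers. The KO vehicle livers held 10.8, 14.7 and 13.8 CPM and the KO APAP livers 303, 319 and 357 CPM. The spread within each group was small beside the distance between treatments, and the lowest WT APAP liver was 19.5 times the highest WT vehicle liver. The fold of mean CPM was 23.2 in WT and 24.9 under the KO label. On the log2 scale of the edgeR fit the difference was 4.55 (SE 0.21) in WT and 4.65 (SE 0.17) under the KO label.

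Tsc22d2 showed the smallest fold of the 6 and, after APAP in WT, the tightest replicates in CPM. WT vehicle livers held 19.5, 19.9 and 16.1 CPM and WT APAP livers 114, 116 and 107 CPM, a coefficient of variation of 4.02% after APAP. In TPM, which is not TMM-scaled, the WT APAP livers held 12.4, 23.5 and 18.8, so this tightness rests on the scaling. KO vehicle livers held 18.5, 22.3 and 22.3 CPM and KO APAP livers 112, 74.4 and 109 CPM. The groups did not overlap, and KO APAP replicate 2 was the lowest of the 6 APAP livers. The fold of mean CPM was 6.08 in WT and 4.69 under the KO label.

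Csrnp1 was read at 13.4, 16.2 and 14.2 CPM in WT vehicle livers and at 11.5, 11.2 and 10.2 CPM in KO vehicle livers. After APAP the WT livers held 151, 106 and 86.4 CPM and the KO livers 90.7, 68.2 and 108.8 CPM. All APAP livers stood above all vehicle livers, with WT APAP replicate 1 the highest. The fold of mean CPM was 7.86 in WT, 6.61 without that liver, and 8.13 under the KO label. In TPM, which is not TMM-scaled, the same liver held 50.1 and WT APAP replicate 2 was the highest, at 64.5, so the order of these livers rests on the scaling.

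Rn7sk was read at a trace in vehicle livers, with counts of 24, 15 and 19 in WT and 37, 14 and 20 under the KO label. After APAP its counts were 1043, 2197 and 1112 in WT and 1056, 1035 and 1722 under the KO label. No vehicle liver came near an APAP liver, and the lowest WT APAP liver was 39.2 times the highest WT vehicle liver in CPM. The mean level was 0.382 ± 0.0681 CPM with vehicle and 22.5 ± 6.21 CPM after APAP in WT (SD, n = 3 each), a fold of 59.0. Under the KO label it was 0.445 ± 0.174 and 19.8 ± 4.33 CPM, a fold of 44.6.

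**Figure D1:**
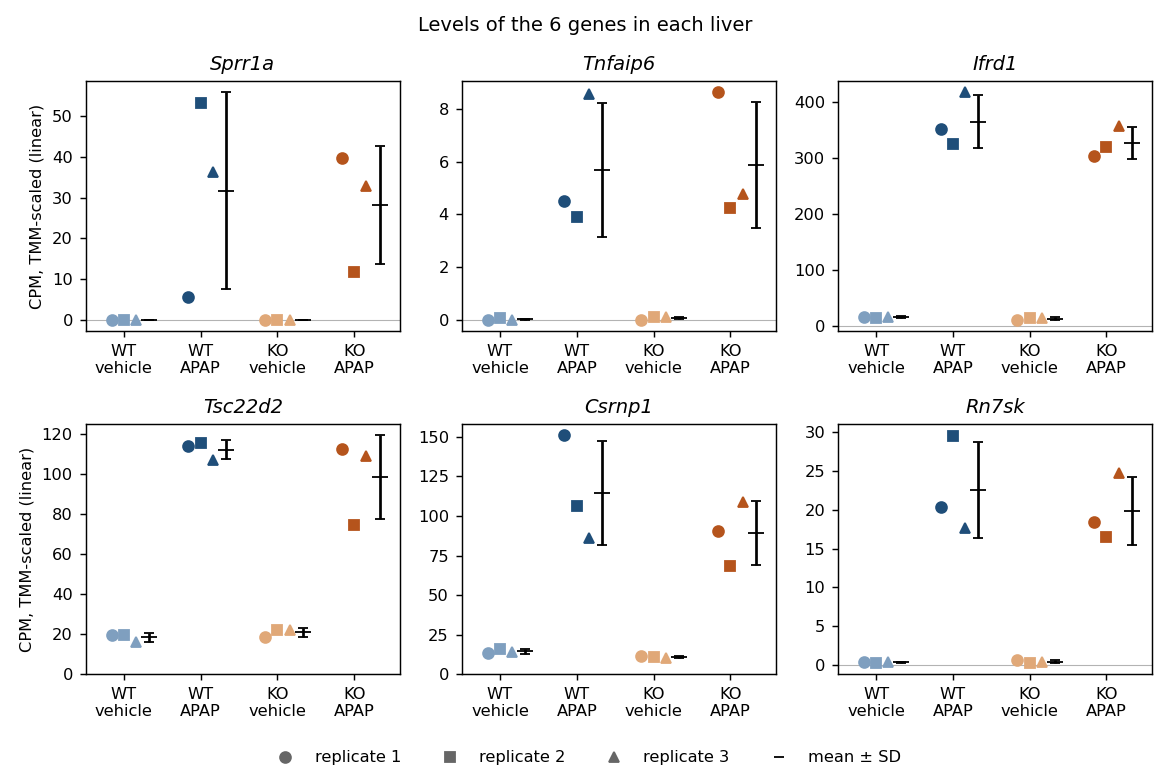
Level of each gene in CPM (vertical axis, linear, TMM-scaled) in the 12 livers by group, with 1 point per liver and marker shapes for replicates 1 to 3. Black bars give the mean and SD of 3 livers. In every panel all 6 APAP livers stand above all 6 vehicle livers, and relative to its mean Sprr1a spreads widest in WT APAP livers, from 5.63 to 53.2 CPM.

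Since the 6 genes were chosen for it, their separation is a property of the choice. APAP livers stood wholly above vehicle livers for 13% of all genes tested in WT and for 21.6% under the KO label. Among 15693 genes ranked by log2 fold change in WT, Sprr1a was number 1, Tnfaip6 14, Rn7sk 50, Ifrd1 92, Csrnp1 223 and Tsc22d2 287. Ranked by the edgeR F statistic, which weighs the change against its spread, Ifrd1 was number 1, Rn7sk 2, Tsc22d2 6, Csrnp1 12, Tnfaip6 18 and Sprr1a 68. So size placed Sprr1a and Tnfaip6 first, whereas Ifrd1, Rn7sk and Tsc22d2 led by size relative to spread. Under the KO label the F ranks were 2 for Ifrd1, 17 for Rn7sk, 24 for Csrnp1, 56 for Sprr1a, 73 for Tsc22d2 and 116 for Tnfaip6, of 15665 genes. The median log2 fold change of the 6 was 5.21 in WT and 5.06 under the KO label, beside 0.03 and -0.02 over all genes tested.

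Per length, the order of the 6 differed between treatments. In WT vehicle livers the mean TPM was 13.6 for Ifrd1, 7.38 for Csrnp1, 3.05 for Tsc22d2, 1.74 for Rn7sk, 0.0127 for Tnfaip6 and 0 for Sprr1a, and only the ranges of the last 2 genes overlapped. In WT APAP livers it was 301 ± 94.2 for Ifrd1, 105 ± 53.2 for Rn7sk, 69.1 ± 58.9 for Sprr1a, 53.7 ± 9.50 for Csrnp1, 18.2 ± 5.55 for Tsc22d2 and 5.38 ± 3.07 for Tnfaip6. Rn7sk and Sprr1a thus stood above Csrnp1 after APAP, but the mean ± SD of Sprr1a overlapped those of Rn7sk, Csrnp1 and Tsc22d2, and those of Rn7sk and Csrnp1 overlapped too, so their order is not settled. In KO APAP livers the means were 341 for Ifrd1, 114 for Rn7sk, 68.5 for Sprr1a, 55.6 for Csrnp1, 20.4 for Tsc22d2 and 7.04 for Tnfaip6, in the same order.

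Among the 6 APAP livers the genes did not follow a common order of livers. Sprr1a was lowest in WT APAP replicate 1 and Csrnp1 was highest there. KO APAP replicate 2 was the lowest of the 6 livers for Tsc22d2, Csrnp1 and Rn7sk, and the second lowest for Sprr1a. Over all 12 livers the 15 pairs of genes had Pearson correlations of log2 CPM from 0.95 to 0.99, which mostly reflects the treatment split that chose them. Within the 6 APAP livers the correlations ran from -0.51 (Tnfaip6 with Rn7sk) to 0.73 (Tsc22d2 with Csrnp1), with a median of 0.25, and 4 of the 15 were below 0. These livers also share library depth and TMM scaling, and 6 points describe no relation firmly.

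**Figure D2:**
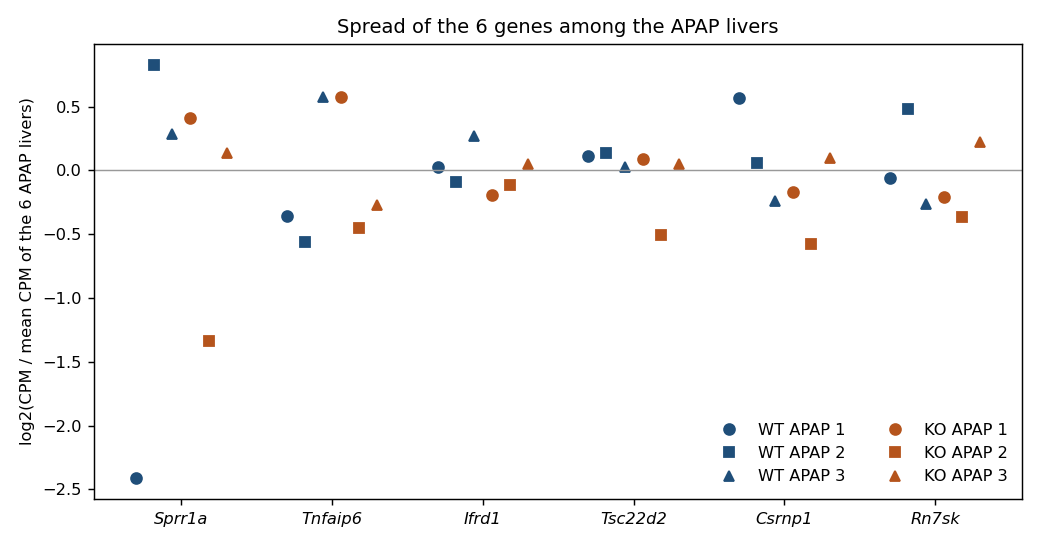
Level of each gene in the 6 APAP livers as log2 of CPM over the mean CPM of those livers (vertical axis), with blue points for WT, orange points for KO by label and shapes for replicates. Sprr1a spreads widest, with WT APAP replicate 1 at 5.63 CPM against 53.2 CPM in replicate 2, and no liver is highest or lowest for all 6 genes.

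The comparison of genotype labels within a treatment was not itself the rule that chose the genes. It was tested with edgeR's quasi-likelihood test over all genes. The choice for steady levels after APAP favoured genes that differ little between labels after APAP, so a lack of calls there is partly a property of the choice. None of the 4 genes that passed the filter on low counts differed between KO and WT vehicle livers at an adjusted p under 0.05, where 0.0262% of 15262 genes were called. None of the 6 differed between KO and WT APAP livers, where 0.0309% of 16174 genes were called. DESeq2 called none either, and at an unadjusted p under 0.05 edgeR gave 1 of 4 with vehicle and 0 of 6 after APAP. Over all genes that p held for 1154 of 15262 with vehicle and 536 of 16174 after APAP.

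The gene at an unadjusted p under 0.05 was Csrnp1 with vehicle, at 14.6 ± 1.44 CPM in WT and 10.98 ± 0.70 CPM in KO livers (SD, n = 3 each). Its log2 fold change, KO minus WT, was -0.41 (SE 0.13, edgeR adjusted p = 0.588). All 3 KO livers were below all 3 WT livers, as for 6.62% of all genes tested in this comparison. Ifrd1 with vehicle differed by -0.26 (SE 0.15, edgeR adjusted p = 0.738), Tsc22d2 by 0.19 (SE 0.14, adjusted p = 0.783) and Rn7sk by 0.23 (SE 0.41, adjusted p = 0.916). Sprr1a and Tnfaip6 were too low in vehicle livers to be tested.

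After APAP the intervals show what size of difference these livers could hold, though the choice for steady levels bears on them too. The 95% interval of the KO to WT ratio was 0.661 to 1.19 for Ifrd1, 0.633 to 1.19 for Tsc22d2 and 0.501 to 1.17 for Csrnp1. It was 0.598 to 1.27 for Rn7sk, 0.557 to 1.90 for Tnfaip6 and 0.288 to 2.73 for Sprr1a. The Sprr1a interval was by far the widest, so its level under the KO label could lie well below or well above that in WT. The edgeR adjusted p-values of the 6 were between 0.958 and 0.993.

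**Figure D3:**
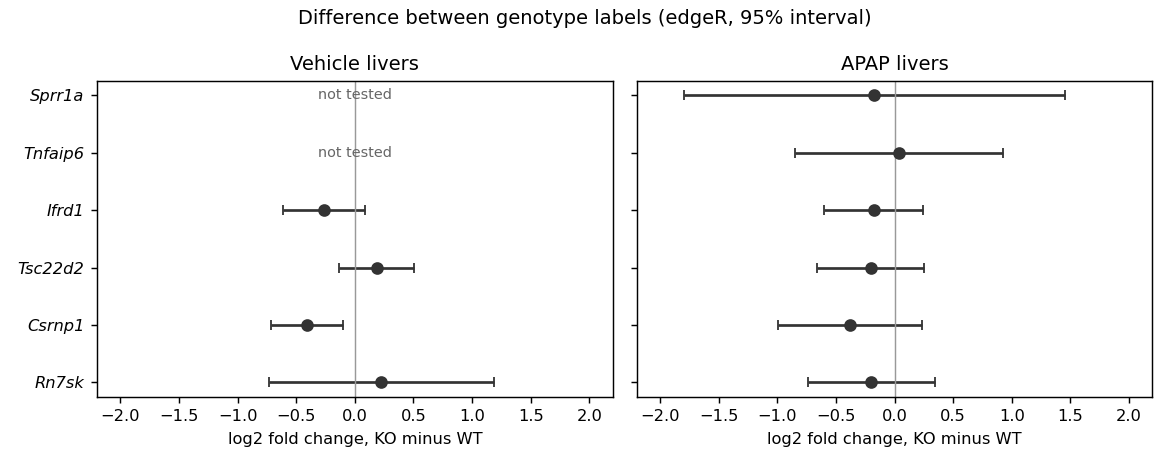
Log2 fold change of each gene, KO by label minus WT (horizontal axis), in vehicle livers and in APAP livers, with points for the edgeR estimate and bars for its 95% interval. After APAP all 6 intervals include 0, and with vehicle the Csrnp1 interval, from -0.71 to -0.10, lies below 0.

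The difference between the APAP effects of both genotype labels uses the contrast that chose the genes and is given with no test. On the log2 scale, KO effect minus WT effect, it was 0.10 (SE 0.22) for Ifrd1, 0.04 (SE 0.30) for Csrnp1, -0.38 (SE 0.24) for Tsc22d2 and -0.41 (SE 0.42) for Rn7sk. For Tnfaip6 it was -1.93 (SE 1.37), which rests on the 2 vehicle counts in WT. It is not given for Sprr1a, whose vehicle counts were all 0.

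The rule that chose the 6 genes did not use their paralogs and partners, whose lists were drawn up with earlier results known, and their APAP against vehicle comparison was tested with edgeR. Over all genes, 1.62% were called higher and 0.427% lower in WT, and 13% higher and 9.6% lower under the KO label. These shares belong to the edgeR fits of 6 libraries and were not counted for DESeq2 or the other fits, whose calls cannot be set against them. In the fits of 6 libraries an unadjusted edgeR p under 0.05 held for 2817 of 15693 genes in WT and 5804 of 15665 under the KO label. Among the related genes, listed by partner, paralog or RNA class, 20 of 148 tested were called higher and 0 lower in WT, and 62 of 161 higher and 3 lower under the KO label. The count of higher genes in WT ran from 2, without WT vehicle replicate 1 or 3, to 55 with all 12 livers in one fit, and under the KO label from 35 to 68. A call under 1 label alone does not show a difference between labels. The filter on low counts keeps a gene that is high enough in the APAP livers alone. Related genes near 0 with vehicle were thus tested only through their APAP level, which set their direction. Of 175 related genes tested with edgeR for the difference of the APAP effects, 0 were called and 11 had an unadjusted p under 0.05. Over all genes 0% were called, and how many had an unadjusted p under 0.05 was not counted.

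**Figure D4:**
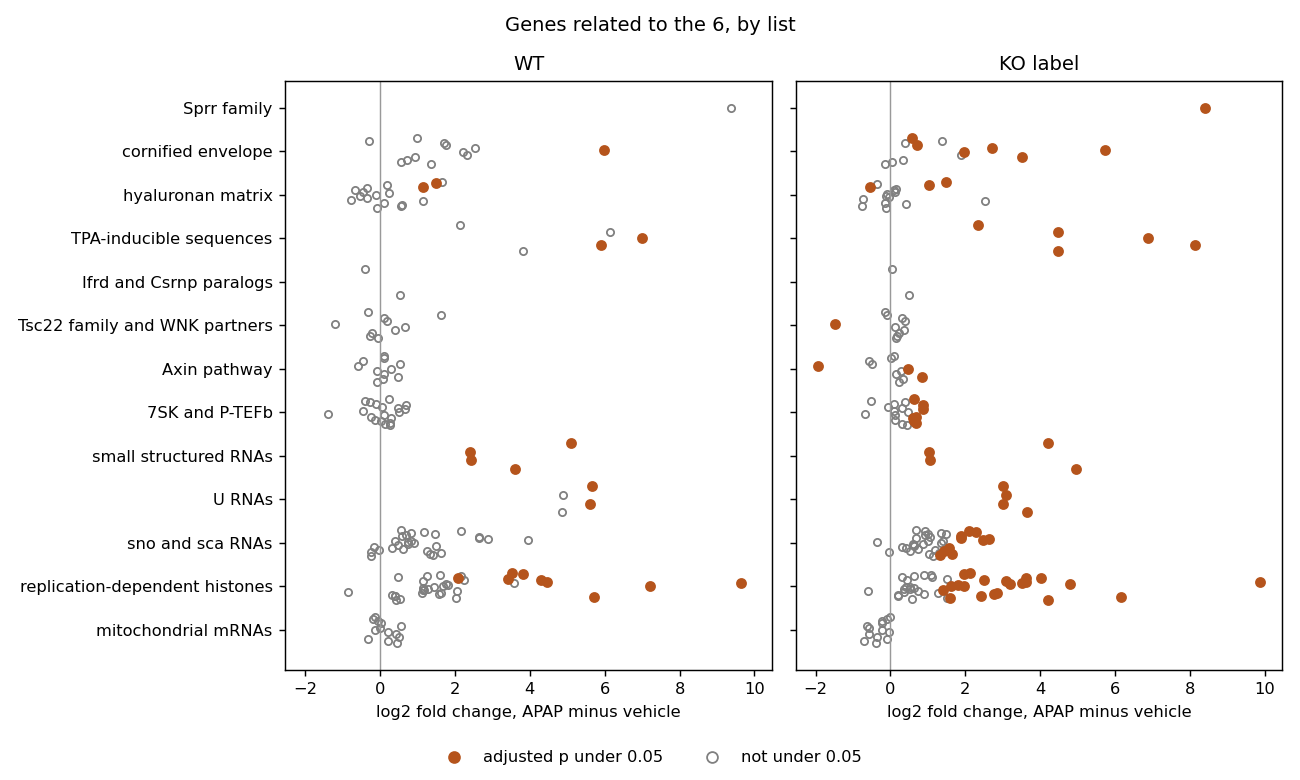
Log2 fold change, APAP minus vehicle (horizontal axis), of each tested gene of the 12 related lists and of the mitochondrial mRNAs, in WT (left) and under the KO label (right). Each point is 1 gene and filled points have an edgeR adjusted p under 0.05. The short structured RNAs are filled throughout in both panels, while the Ifrd and Csrnp paralogs and the mitochondrial mRNAs are open throughout.

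Among the paralogs of Sprr1a, 1 of 15 was high enough to test, through its APAP livers alone, so its direction was set by the filter. Sprr1b, its nearest relative, had 0 counts in all 6 vehicle livers, 16, 80 and 187 in WT APAP livers and 48, 69 and 18 in KO APAP livers. It was called under the KO label (edgeR adjusted p = 0.00675) and not in WT (adjusted p = 0.0586), where the fit of all 12 livers did call it (adjusted p = 0.0144), as did DESeq2 (adjusted p = 2.99e-07). Its livers did not follow Sprr1a, since WT APAP replicate 3 held the most Sprr1b and replicate 2 the most Sprr1a. Of the Sprr2 genes, Sprr2i had 30 counts over the 3 WT APAP livers and 24 over the 3 KO APAP livers, and 10 of the 15 paralogs had no count in any liver. Of 12 tested cornified envelope genes, 1 rose in WT (1.62% of all genes) and 6 under the KO label (13%). DESeq2 called 7 higher in WT and 6 under the KO label, and the edgeR fit of all 12 livers called 3 under each. The share over all genes was not counted for these 2 fits. Lor, which encodes loricrin, a main protein of that envelope, rose in both, by a log2 fold change of 5.98 (SE 0.78, edgeR adjusted p = 0.0138) in WT and 5.73 (SE 0.33, adjusted p = 6.32e-05) under the KO label. Its levels in WT APAP livers were 6.70, 11.1 and 37.0 CPM, against at most 0.57 CPM in any vehicle liver.

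The keratinocyte markers that would mark skin cells stayed near 0 beside Sprr1a. Of the 6, Krt14, Krt1 and Dsg3 had no count in any liver, Trp63 had none in an APAP liver, and Krt5 had at most 16 counts in a liver and none with vehicle. Krt10 was present throughout, with 105 counts over WT vehicle and 151 over WT APAP livers, and the sum of all 6 markers was 0.60 to 1.59 CPM in vehicle livers and 0.71 to 1.09 CPM in APAP livers. The cholangiocyte marker sum was higher after APAP, at 27.8 to 73.7 CPM against 12.0 to 19.6 CPM in WT and 29.1 to 36.1 CPM against 16.9 to 26.3 CPM under the KO label. Its 73.7 CPM was in WT APAP replicate 1, and the other WT APAP livers held 27.8 and 40.9 CPM. All 5 markers were present in every group. Of these markers only Sox9 was called, under both labels, with 521 counts over WT vehicle and 4949 over WT APAP livers and 282 and 3680 under the KO label, and its WT call was lost without WT APAP replicate 1 (edgeR adjusted p = 0.0744). Without Sox9 the sum was 10.3 to 13.4 CPM with vehicle and 9.34 to 36.5 CPM after APAP in WT, and 14.8 to 24.3 and 9.88 to 14.6 CPM under the KO label. Spp1 had 2667 counts over KO vehicle and 2023 over KO APAP livers. The part of cholangiocytes in the Sprr1a level was not tested.

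Around Tnfaip6, 2 of 17 tested hyaluronan genes rose in WT and 2 of 16 under the KO label, against 1.62% and 13% of all genes. In both they were Ugdh, the dehydrogenase that makes the hyaluronan precursor UDP-glucuronate, and Lyve1, the hyaluronan receptor of sinusoidal endothelium. Ugdh rose by a log2 fold change of 1.51 (SE 0.23, edgeR adjusted p = 0.0226) in WT and 1.496 (SE 0.16, adjusted p = 0.0011) under the KO label. Lyve1 rose by 1.15 (SE 0.19, edgeR adjusted p = 0.0287) and 1.04 (SE 0.17, adjusted p = 0.00542), and without WT APAP replicate 1 its WT value was 1.13 and no longer called (adjusted p = 0.0513), which left Ugdh alone in WT. Itih5, of the heavy chain family that TSG-6 acts on, fell under the KO label by 0.56 on the log2 scale (SE 0.15, edgeR adjusted p = 0.0308) and had -0.34 (adjusted p = 0.536) in WT. The list's median log2 fold change was 0.11 in WT and -0.06 under the KO label, near that of all genes.

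Leukocytes and mesenchymal cells are known sources of TSG-6, and differences in their marker sums between genotype labels were not tested. The neutrophil marker sum was 1.20 to 19.7 CPM in WT vehicle, 12.9 to 128 CPM in WT APAP, 1.36 to 2.47 CPM in KO vehicle and 1.10 to 8.63 CPM in KO APAP livers, with 128 CPM in WT APAP replicate 1. The macrophage sum was 97.5 to 161 and 90.3 to 211 CPM in WT and 132 to 229 and 102 to 152 CPM under the KO label, with vehicle and after APAP in turn. Of its 7 markers edgeR called 1, Cd68, higher under each label (1.62% and 13% of all genes). Cd68 had 679 counts over WT vehicle and 2817 over WT APAP livers, and 789 and 2326 under the KO label, where the other 6 markers were lower after APAP without a call. The stellate sum was 134 to 157 and 161 to 316 CPM in WT and 192 to 264 and 160 to 163 CPM under the KO label. Its 316 CPM was in WT APAP replicate 1, and the other WT APAP livers held 161 and 176 CPM. Of the 6 stellate markers edgeR called 0 in WT and 3 lower under the KO label (9.6% of all genes). The part of these cells in the Tnfaip6 level was not tested.

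No paralog of Ifrd1 or Csrnp1 passed the test. Ifrd2 had 25.1 ± 1.18 CPM with vehicle and 18.8 ± 6.47 CPM after APAP in WT, and 24.0 ± 4.41 and 24.5 ± 5.79 CPM under the KO label (SD, n = 3 each). Csrnp2 had 1.72 ± 0.32 and 2.50 ± 0.76 CPM in WT and 2.15 ± 0.49 and 2.98 ± 0.33 CPM under the KO label, and Csrnp3 had no count in any liver. None was called by edgeR or DESeq2 under either label, and 0 had an unadjusted p under 0.05 in edgeR. In WT the edgeR difference was -0.41 (adjusted p = 0.436) for Ifrd2 and 0.55 (adjusted p = 0.424) for Csrnp2.

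Ifrd1 was compared with other TPA-inducible sequences and like immediate early genes. Of 5 tested, 2 rose in WT (1.62% of all genes) and 5 under the KO label (13%), and all 5 had higher means after APAP in both. In WT the count was 4 with DESeq2 and with all 12 livers in one fit, and 3 without WT APAP replicate 1. Egr1, an immediate early zinc finger factor, rose by a log2 fold change of 5.90 (SE 0.68, edgeR adjusted p = 0.00933) in WT and 8.14 (SE 0.44, adjusted p = 4.67e-05) under the KO label. Fos, a subunit of AP-1, rose by 7.00 (SE 0.80, edgeR adjusted p = 0.00933) and 6.88 (SE 0.88, adjusted p = 0.00206). Ifrd1 was chosen for steady levels in these livers, so its narrower spread beside Fos and Egr1 was favoured by the choice. Fos ranged from 22.2 to 219 CPM in KO APAP livers, where Ifrd1 ranged from 303 to 357 CPM. In WT APAP livers Egr1 spanned 1.41-fold and Ifrd1 1.28-fold.

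Among the relatives of Tsc22d2, 1 passed the test, with a lower level after APAP. Tsc22d3, the glucocorticoid-induced member GILZ, fell under the KO label by 1.47 on the log2 scale (SE 0.24, edgeR adjusted p = 0.00476), and its value in WT was -1.20 (SE 0.52, adjusted p = 0.28). Tsc22d1 had 0.66 (SE 0.40, adjusted p = 0.434) in WT and 0.12 (SE 0.25, adjusted p = 0.758) under the KO label, and Tsc22d4 had 0.18 and 0.38 (edgeR adjusted p = 0.709 and 0.225). Of 10 tested family and WNK pathway genes, 0 were called in WT by edgeR or DESeq2, with 1 at an unadjusted p under 0.05, and 1, Tsc22d3, under the KO label.

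The Axin and Wnt genes around Csrnp1 gave 0 calls of 11 in WT by edgeR and DESeq2, with 0 at an unadjusted p under 0.05. Under the KO label 2 rose and 1 fell, beside 13% and 9.6% of all genes, and with all 12 livers in one edgeR fit 0 were called higher and 1 lower. Axin2, a negative regulator and target of Wnt signalling, rose by 0.85 (SE 0.24, edgeR adjusted p = 0.0344) and the kinase gene Gsk3b by 0.46 (SE 0.13, adjusted p = 0.0326). Lgr5, a pericentral Wnt target, fell by 1.94 on the log2 scale (SE 0.50, adjusted p = 0.0276). In WT the values were 0.47 (adjusted p = 0.696) for Axin2 and -0.58 (adjusted p = 0.492) for Lgr5, with Axin2 at 1.86 CPM in WT APAP replicate 1 against 8.79 and 11.5 CPM in the other 2 livers.

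The messages for the protein partners of 7SK had small differences beside that of Rn7sk. Of 19 tested genes of the 7SK particle and the elongation machinery, 0 were called in WT by edgeR, and DESeq2 called 1, with a lower level. At an unadjusted edgeR p under 0.05 there were 5 of the 19 in WT, beside 2817 of 15693 over all genes. Under the KO label 7 rose (13% of all genes did) and 0 fell. Among them were Larp7, which binds the 3′ end of 7SK, at 0.88 (SE 0.14, edgeR adjusted p = 0.00478), Hnrnpa1 at 0.87 (adjusted p = 0.00821), the elongation factors Ell at 0.69 (adjusted p = 0.0106) and Supt5 at 0.62 (adjusted p = 0.0126), Ccnt1 at 0.64 (adjusted p = 0.0118) and Cdk9 at 0.61 (adjusted p = 0.0207). Hexim1, which links 7SK to P-TEFb, had 0.50 in WT and 0.47 under the KO label (edgeR adjusted p = 0.176 and 0.0531), and Mepce, which caps the 5′ end, had -0.11 and 0.08 (adjusted p = 0.795 and 0.674). The edgeR difference of Rn7sk was 5.88 in WT and 5.46 under the KO label, and the largest among the 19 genes, in either direction, was 1.40 in WT and 0.88 under the KO label.

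Other short structured RNAs without a poly-A tail were higher together with Rn7sk. Of the 9 such RNAs listed, 4 passed the filter, and all 4 rose in WT and under the KO label, also without WT APAP replicate 1. Rmrp and Rpph1 were near 0 with vehicle and passed through their APAP level, so their direction was set by the filter. Rn7s1 had 46 to 67 counts in WT vehicle livers. Over all genes 1.62% rose in WT and 13% under the KO label. Rpph1, the RNA of ribonuclease P, had counts of 0, 5 and 10 in WT vehicle and 172, 258 and 225 in WT APAP livers, and 8, 7 and 6 against 127, 155 and 201 under the KO label. Its log2 fold change was 5.09 (SE 0.76, edgeR adjusted p = 0.0223) in WT and 4.22 (SE 0.29, adjusted p = 0.000161) under the KO label. Rmrp, the RNA of the related ribonuclease MRP, rose by 3.61 (SE 0.41, edgeR adjusted p = 0.00933) and 4.94 (SE 0.85, adjusted p = 0.00595). Rn7s1, a signal recognition particle RNA, rose by 2.42 (SE 0.29, edgeR adjusted p = 0.0109) and 1.05 (SE 0.20, adjusted p = 0.00958), and Rn7s2, a near-identical copy whose reads cannot be told apart, by 2.41 and 1.03 (adjusted p = 0.0114 and 0.00948).

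**Figure D5:**
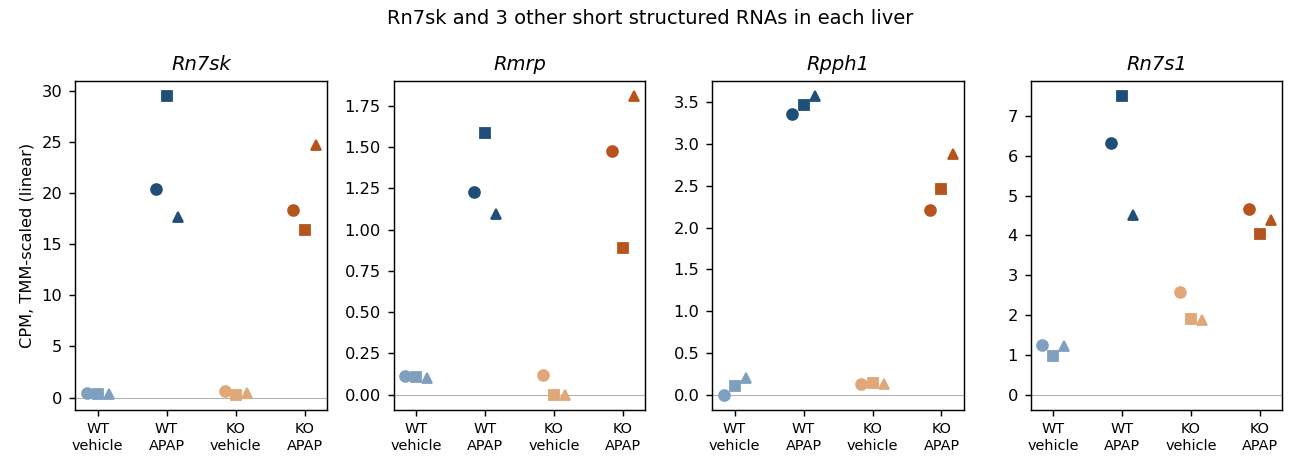
Level of Rn7sk, Rmrp, Rpph1 and Rn7s1 in CPM (vertical axes, linear, TMM-scaled, a separate scale for each RNA) in the 12 livers by group, with 1 point per liver. All APAP livers stand above all vehicle livers in each panel, with Rn7sk at 16.5 to 29.5 CPM after APAP and the other RNAs under 8 CPM.

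Further RNAs that end without a poly-A tail showed the same direction to differing degrees. Of 35 tested replication-dependent histone genes in WT, 9 rose (1.62% of all genes did) and 34 had a higher mean after APAP, and of 42 under the KO label 21 rose (13% of all genes) and 41 had a higher mean. Of the 63 listed, those near 0 with vehicle were tested only because of their APAP level, which set their direction. H2ac10, for example, had 1 to 2 counts in WT vehicle livers and 35 to 160 in WT APAP livers. The counts of rises and higher means are thus partly a property of the filter. The median log2 fold change of the tested histone genes was 1.63 in WT and 1.52 under the KO label, and 6 rose in WT without WT APAP replicate 1. In WT DESeq2 called 21 and the edgeR fit of all 12 livers 29, and both called 21 under the KO label, with no share over all genes counted for either. H2ac10 rose by 5.73 (SE 0.67, edgeR adjusted p = 0.00953) in WT and 6.15 (SE 0.48, adjusted p = 0.000249) under the KO label. Histone genes of these clusters share long stretches of sequence, so counts of single copies are uncertain. Of the small nucleolar RNA genes 0 of 28 were called in WT by edgeR, with 10 at an unadjusted p under 0.05 (2817 of 15693 over all genes) and 5 called by DESeq2. Under the KO label 10 of 35 rose (13% of all genes did), led by Snord14d at 2.63 (SE 0.37, edgeR adjusted p = 0.00311).

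The 4 tested U RNA genes, Rnu3b1 to Rnu3b4, are copies of U3, of which 2 rose in WT (1.62% of all genes) and 4 under the KO label (13%). They are 4 of 18 listed and had 0 to 4 counts in each vehicle liver, against 12 to 101 in WT APAP livers. They were therefore tested only because of their APAP level, and their direction was set by the filter. Without WT APAP replicate 1 none of the U3 copies was called in WT. Of the 44 small RNA genes tested, 38 lie within an annotated gene on the same strand (Snord14d within Hspa8), so reads of their hosts cannot be told apart from theirs, whereas Rmrp, Rpph1, Rn7s1 and Rn7s2 lie in no such host. The 13 mitochondrially encoded mRNAs, most of which carry poly-A tails, gave 0 calls under either label by edgeR and DESeq2, with 0 at an unadjusted p under 0.05 in edgeR under either label and 2 in DESeq2 under the KO label. Their median log2 fold change was 0.02 in WT and -0.22 under the KO label, where all 13 had lower means, and without WT APAP replicate 1 it was -0.40 in WT, with all 13 lower. The summed level of the 9 short structured RNAs was 2.59 ± 0.40 CPM with vehicle and 17.5 ± 3.16 CPM after APAP in WT and 4.47 ± 0.84 and 12.9 ± 1.19 CPM under the KO label. These RNAs and Rn7sk lack the tail on which the libraries were selected, and whether their abundance or their carry-over through the selection differed was not tested.

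The genes most like each member over the 12 livers, by Pearson correlation of log2 CPM among 12303 genes with a mean of at least 1 CPM, again carry the treatment split, and no p is given. Areg, which encodes the growth factor amphiregulin, was among the first 3 for Ifrd1 (0.995), Rn7sk (0.993), Tsc22d2 (0.990) and Csrnp1 (0.989). Csrnp1 was most like Pvr (0.996), with Dusp5 (0.988) also among its first 3. Within the 6 APAP livers the correlation of Csrnp1 was 0.96 with Areg, 0.93 with Pvr and 0.89 with Dusp5, whereas that of Ifrd1 with Areg was -0.04. Tsc22d2 kept 0.94 with Klf6 among the APAP livers. Sprr1a was most like Gm8818, Gm34455 and Sqstm1 (0.989 to 0.990), and Tnfaip6 was most like Hspa5, Siah2 and Tsc22d2 (0.984 to 0.985). Sqstm1 (0.994) and Zfand5 (0.991) were the other genes near Ifrd1, and Ifrd1 (0.987) and Gm34455 (0.985) those near Rn7sk.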

How the data were processed

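RNA was sequenced from 12 mouse livers, as 4 groups of 3 set by the sample labels, from poly-A selected stranded libraries (RIN of at least 7). The submitters' processing notes name FastQC 0.11.7, Trimmomatic 0.38, HISAT2 2.1.0, Bowtie2 2.3.4.1, StringTie 2.1.3b and builds mm10 and GRCm38. The authors deposited 1 table of 45777 genes with raw read counts, FPKM and TPM per library. FPKM as deposited was not used, and TPM as deposited by the authors served for levels between genes and for an alternative test.

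The counts were fitted with edgeR 4.0.16 in R 4.3.3 (TMM, filterByExpr, glmQLFit and glmQLFTest, Benjamini-Hochberg adjustment over all genes tested, threshold 0.05), each comparison on its own 6 libraries. Log2 CPM used a prior count of 2. Intervals are at 95% and the floor is 3 counts per library. Nothing says more of the replicates than that each is a separate liver, and p-values measure the spread between these. The total count per library, 49737950 to 69566079, sets the counting precision. Alternatives were DESeq2 1.42.0 (size factors, and its Wald test), no filter, at least 1 CPM in 3 libraries, all 12 livers in a single fit, a replicate block, limma 3.58.1 on quantile-normalized log2(TPM + 1) and log2(TPM + 0.1), and leaving out each library. The fit was tested on simulated data.

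The 6 genes and the lists of related genes and markers were chosen with earlier results of these data known. Named were all 6 genes, every tested paralog, and from each list at most 5 called genes with the smallest p, or at most 3 where none was called. For each of the 6, the 3 genes with the highest correlation over 12 livers were named. Further list genes (Hexim1 and Mepce under the KO label, Cdk9, Krt and Sprr2 genes, and values of called genes under the other label) were named after their values were seen.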

Additional observations from a re-analysis of the deposited data

How the results depend on the processing

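The count of the 6 genes called between genotype labels was 0 under all 14 alternatives, with vehicle and after APAP. Signs of these small differences (log2, KO minus WT) did turn. Sprr1a after APAP was 0.0705 with the replicate block, 0.16 on log2(TPM + 1), 0.18 on log2(TPM + 0.1), 0.19 without KO APAP replicate 2 and 0.41 without WT APAP replicate 2, and -0.67 to 0.41 over all left-out libraries. Ifrd1 after APAP was 0.0354 and 0.0356 on the 2 TPM scales. Tnfaip6 after APAP was -0.35 without KO APAP replicate 1, -0.08 when the first and -0.17 when the second WT APAP library was left out, within -0.35 to 0.46. Rn7sk was 0.0321 after APAP without WT APAP replicate 2 (range -0.37 to 0.0321) and -0.11 with vehicle without KO vehicle replicate 1 (range -0.11 to 0.48).

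The median APAP effect of the 6 genes was 5.12 to 5.30 in WT and 4.94 to 5.19 under the KO label with single libraries left out. It was 3.57 in WT and 3.66 under the KO label on log2(TPM + 1), and 4.95 in WT on log2(TPM + 0.1), where the pseudocount lowers the values of Sprr1a and Tnfaip6. The number of related genes called higher in WT depended on the fit: 20 as reported, 49 by DESeq2's Wald test, 55 with all 12 livers, 9 with at least 1 CPM in 3 libraries, which tests fewer genes, and 2 to 26 with single libraries left out. It was 2 without WT vehicle replicate 1 or 3, 7 without WT APAP replicate 3 and 11 without WT vehicle replicate 2. DESeq2 called 1 lower in WT, against 0. Under the KO label 35 were higher with at least 1 CPM in 3 libraries, against 62, and 1 to 3 were lower with single libraries left out, against 3. The cause of the other changes was not tested, and the share of all genes called was not counted for these alternatives.

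Same-numbered livers of the groups compared did not deviate together (correlations of -0.38 to 0.05 over 12 pairs), so no pairing by number was seen. With 3 livers per group this check cannot exclude one. The replicate block left 3 related genes called higher in WT and changed no call of the 6 genes.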
